A study of Mus musculus with 14 samples.

Results

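Conjugating enzymes and carboxylesterases of the mouse small intestine were described across 2 regions and 3 cell populations. Conjugating enzymes attach a water-soluble group to drugs, dietary compounds, hormones and bile pigments so that they can be exported: glutathione S-transferases (GST) attach glutathione, UDP-glucuronosyltransferases (UGT) attach glucuronic acid and sulfotransferases (SULT) attach sulfate. Carboxylesterases (CES) cut ester bonds in drugs and in lipids. In the small intestine these enzymes are known chiefly from absorptive enterocytes, the cells that first meet swallowed compounds, and several of the families lie in gene clusters whose members are near-identical copies.

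The members were all rows of the deposited count files whose gene symbol matched the numbered genes of the cytosolic and microsomal GST, the UGT1A, UGT2A and UGT2B, the SULT and the CES families. This gave 81 rows with 80 symbols, of 36401 rows in all, since Ces5a has 2 rows. They were picked by name, but with earlier results of these data known. By family there were 24 GST, 18 UGT, 18 SULT and 21 CES rows.

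The study compared stem cell preparations of the ileum, collected 5 to 8 cm from the cecum, with those of the jejunum, collected 5 to 8 cm from the pylorus. All groups came from C57Bl6 mice labelled male and 6 to 12 weeks old, with no transgene, allele or treatment given in the labels. Per region there were 2 libraries of cells selected by LGR5, a receptor of crypt base columnar stem cells (LGR5), 2 of sorted CD44+/CD24lo/CD166+ cells (CD166) and 3 of crypt cells (crypt), 14 libraries in all. The labels do not say that libraries of a group came from separate mice, so every p-value here measures the spread between these libraries.

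Total counts ran from 6295828 to 20380369 per library. All 10 enterocyte markers were lower and all 8 stem cell markers higher in LGR5 than in crypt libraries, and the same held for CD166 against crypt libraries (edgeR, adjusted p under 0.05). With ileum crypt 3 left out, 5 of the 8 stem cell markers were called in CD166, without Ascl2, Rgmb and Cdca7. The library labelled ileum crypt 3 stood apart. With jejunum crypt 1 it formed the most alike pair of all libraries: 15.9% of 12773 genes differed between them beyond counting noise, against 35.7% for the next most alike pair, and noise alone gives 5%. Among 48 members with enough counts 10 differed between those libraries. Regional results are therefore given with all libraries and without ileum crypt 3. Ileum crypt 1 and jejunum crypt 2 had Xist at 1310.1 to 1675 CPM, the unit of all levels here, although the labels give male mice, while the other 4 crypt libraries had at most 3.12. The same 2 libraries had the highest summed lymphocyte markers of their region's crypt libraries, up to 9922 in jejunum crypt 2.

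Of the 81 rows, 51 had enough counts to be tested: 22 GST, 9 UGT, 6 SULT and 14 CES. The other 30 included 15 with no count in any library, among them Sult2a1 to Sult2a7, Sult1e1, Sult1c1, Sult3a1, Ces1a, Ces4a and Ces5a. A count of 0 in these libraries allows up to 0.164 to 0.539 CPM (3 counts of a library's total, counting error only). Of the 15 untested rows with counts, 14 stayed at or below 0.896 CPM. The exception was Ugt2b38, with 38.5 CPM in jejunum crypt 2 and at most 0.491 in each other library. CPM are counts scaled to a common library size after TMM normalisation; they are not divided by gene length, so they are compared between libraries and not between genes.

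More members were called lower than higher in the ileum. Averaged over the 3 populations, 16 of the 51 tested members differed between ileum and jejunum (edgeR's quasi-likelihood test, Benjamini-Hochberg adjusted p under 0.05), 14 of them lower and 2 higher in the ileum. Over all 14750 genes tested, 5.01% were called, 2.02% lower and 2.99% higher. The 14 lower members were Ces1e, Ces1f, Ces2a, Ces2c, Ces2d-ps, Ces2e, Ces2g, Gsta1, Gstk1, Gstm6, Gstt1, Ugt1a6a, Ugt1a9 and Ugt2a3, and the 2 higher ones were Ces1c and Gsta3. Of these 16, DESeq2 did not call Ces2g, and limma-voom did not call Gsta1, Gsta3, Gstk1 and Ugt1a9. The median log2 fold change, ileum minus jejunum, was -0.83 over the members and -0.01 over all genes, and 45 of 51 members lay below 0. Without Ces2d-ps, Ces2h and Ces3a, which had no count in at least 1 group, the median of the other 48 members was -0.71. In bulk libraries, fewer cells of a type and less RNA per cell cannot be told apart.

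Enterocyte markers moved with this difference. Of the 10 markers, 7 were lower and 1, Krt20, was higher in the ileum. Their summed level was 5791 to 18691 CPM in ileum crypt libraries, against 19457 to 49070.3 CPM in jejunum crypt libraries. In sorted libraries it was 471 to 662 CPM in ileum LGR5, against 1013 to 1535 CPM in jejunum LGR5, and 697 to 866 CPM in ileum CD166, against 1367 to 2099 CPM in jejunum CD166. The part of enterocytes in the regional result was not tested. In a fit of the 8 sorted libraries alone, added after seeing the data, 24 of 48 members were called, 21 lower and 3 higher in the ileum, where 10.4% of all genes were called.

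Without ileum crypt 3, 26 of 51 members were called, 22 lower and 4 higher, where 8.61% of all genes were called, 4.14% lower and 4.47% higher. These included all 16 members above. The members added were Ces1d, Ces3a, Gstm3, Gstm4, Gstm7, Sult1b1, Ugt1a1 and Ugt1a7c, lower in the ileum, and Sult1a1 and Sult1c2, higher in the ileum. Without any 1 of the 8 sorted libraries, fewer members were called than with all libraries. Such a fit leaves 1 library in a group. The share over all genes is not given for these fits, so the lower count is not read as a result about the members. Only Ugt1a6a, Ces2c and Ces1e remained called in all 14 fits that left out 1 library, and no called member changed direction in any of them.

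**Figure D1:**
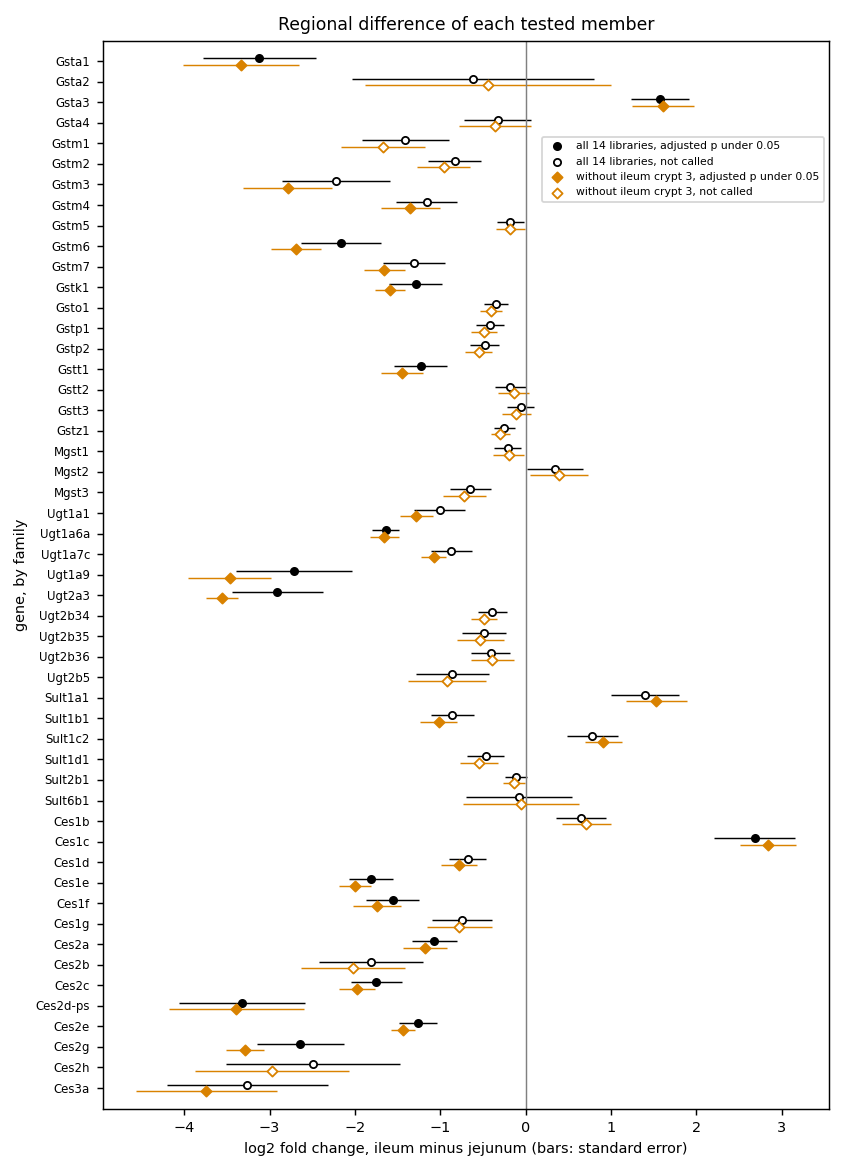
Log2 fold change, ileum minus jejunum and averaged over the 3 populations, of each of the 51 tested members, grouped by family from GST at the top to CES at the bottom. Circles are fits of all 14 libraries, diamonds fits without ileum crypt 3, bars the standard error, and filled symbols have an adjusted p under 0.05; most members lie left of 0, with Ces1c at 2.68 and Gsta3 at 1.57 on the right. Ces2d-ps, Ces2h and Ces3a were fitted against groups with no count, so their positions are no measure of size.

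The promoters of 4 members called by region, lower or higher in the ileum, are shown. Short motifs known for regulators of gut genes can be looked for in them. Picked by hand, these promoters are not those of the members with the largest differences, and each held a match. They are the 250 bases before the transcription start from RefSeq (GRCm38.p6), written 5′ to 3′ on the gene's strand: Ugt2a3 at chr5:87337196-87337445 (minus strand), Ces2g at chr8:104961468-104961717 (plus strand), Gsta3 at chr1:21240335-21240584 (plus strand) and Ces1c at chr8:93131284-93131533 (minus strand). Capitals mark matches, on either strand, to AGATAA (known for the GATA factors), GTTAAT (part of the HNF1 site), CATAAA (CDX factors) and TGACNNNGC (core of the antioxidant response element).
Ugt2a3: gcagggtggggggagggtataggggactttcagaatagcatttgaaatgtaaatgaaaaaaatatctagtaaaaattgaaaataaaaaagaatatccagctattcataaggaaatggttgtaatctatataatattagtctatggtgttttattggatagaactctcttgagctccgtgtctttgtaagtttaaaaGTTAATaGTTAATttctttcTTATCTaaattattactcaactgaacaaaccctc
Ces2g: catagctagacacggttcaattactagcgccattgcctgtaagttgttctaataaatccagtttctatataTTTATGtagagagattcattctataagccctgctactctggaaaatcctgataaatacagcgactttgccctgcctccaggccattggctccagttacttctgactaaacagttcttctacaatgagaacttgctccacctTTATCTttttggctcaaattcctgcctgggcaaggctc
Gsta3: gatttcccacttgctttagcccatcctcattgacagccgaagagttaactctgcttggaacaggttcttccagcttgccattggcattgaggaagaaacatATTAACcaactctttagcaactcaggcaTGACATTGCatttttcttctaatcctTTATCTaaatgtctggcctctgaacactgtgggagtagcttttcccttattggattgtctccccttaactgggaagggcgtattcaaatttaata
Ces1c: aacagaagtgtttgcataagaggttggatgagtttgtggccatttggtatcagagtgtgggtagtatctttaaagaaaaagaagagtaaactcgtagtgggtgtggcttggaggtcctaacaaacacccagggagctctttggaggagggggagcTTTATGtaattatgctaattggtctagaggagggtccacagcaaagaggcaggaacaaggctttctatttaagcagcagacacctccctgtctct
Ugt2a3 held a pair of GTTAAT matches beginning 54 and 47 bases before the start and an AGATAA match at 34. Ces2g held an AGATAA match at 38 and a CATAAA match at 179 bases before the start. Gsta3 held AGATAA at 95, TGACNNNGC at 121 and GTTAAT at 149 bases before the start, and Ces1c held CATAAA at 95.

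Of the members, 68 genes with 80 promoters were in the RefSeq table. AGATAA was in 17.5% of the members' promoters and in 9.99% of 32851 promoters of the same length. It was in 6 of the 14 called members with a promoter: Ces1e, Ces2g, Gstk1, Ugt1a9 and Ugt2a3, lower in the ileum, and Gsta3, higher in the ileum. GTTAAT was in 17.5% of the members' promoters and 6.43% of all, CATAAA in 13.8% and 10.8%, and TGACNNNGC in 5% and 10.2%. CAAAGTCCA, an HNF4 motif, was in 0% and 0.384%. A match says only that these letters lie in the window. In the libraries Gata4 had 8.00 and 17.4 CPM in ileum LGR5, against 168 and 188 CPM in jejunum LGR5, and 28.0, 45.4 and 233 CPM in ileum crypt, against 229, 88.3 and 324 CPM in jejunum crypt libraries. Its regional log2 fold change was -2.99 ± 0.50 (SE; adjusted p = 0.00962).

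Of 14 tested carboxylesterases, 7 were lower and 1 was higher in the ileum. The Ces2 genes hydrolyse drug esters and acylglycerols in gut and liver, and 5 of 7 tested Ces2 members were lower, with a median log2 fold change of -1.81. They lie next to each other on chromosome 8, and reads shared between near-identical copies may have been split between them.

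Ces2g (ENSMUSG00000031877) had 11.4, 17 and 137 CPM in ileum crypt libraries, against 127, 133 and 275 CPM in jejunum crypt libraries. It had 10.1 and 7.86 CPM in ileum LGR5, against 72.1 and 72.3 CPM in jejunum LGR5 libraries, and 9.70 and 8.99 CPM in ileum CD166, against 91.6 and 82.5 CPM in jejunum CD166 libraries. Ileum crypt 3 lay among the jejunum crypt libraries, and every other ileum library lay below every jejunum library. The log2 fold change was -2.64 ± 0.51 (SE; adjusted p = 0.0166), and -3.29 ± 0.22 without ileum crypt 3 (9.80-fold lower). With all libraries limma-voom called Ces2g in the mean of the populations and DESeq2 did not. Its share of the Ces2 counts was 9.36% in ileum LGR5, against 25.1% in jejunum LGR5, and 7.41% in ileum CD166, against 24.2% in jejunum CD166 libraries.

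Ces2c (ENSMUSG00000061825), a lipid and drug esterase, had 37.7, 35.7 and 103 CPM in ileum crypt libraries, against 105, 234 and 254 CPM in jejunum crypt libraries. It had 4.14 and 3.34 CPM in ileum LGR5, against 12.6 and 11.3 CPM in jejunum LGR5 libraries, and 4.80 and 5.29 CPM in ileum CD166, against 15.5 and 20.7 CPM in jejunum CD166 libraries. The ileum lay below the jejunum without overlap in each population, though ileum crypt 3 was close to jejunum crypt 1. The log2 fold change was -1.75 ± 0.30 (SE, edgeR adjusted p = 0.0105). Ces2e, the Ces2 member with the most counts, had 453, 455 and 1080 CPM in ileum crypt libraries, against 1038, 1148 and 1551 CPM in jejunum crypt libraries. It had 50.7 and 41.6 CPM in ileum LGR5, against 149.8 and 115 CPM in jejunum LGR5 libraries, and 66.3 and 79.7 CPM in ileum CD166, against 178 and 195 CPM in jejunum CD166 libraries. Ileum crypt 3 overlapped the jejunum crypt libraries, and the sorted groups did not overlap. The log2 fold change of Ces2e was -1.26 ± 0.22 (SE; adjusted p = 0.0113).

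Ces2a had 174, 255 and 378 CPM in ileum crypt libraries, against 369, 675 and 1221 CPM in jejunum crypt libraries. It had 42 and 31.6 CPM in ileum LGR5, against 76.2 and 66.6 CPM in jejunum LGR5 libraries, and 35.2 and 43.8 CPM in ileum CD166, against 58.4 and 75.2 CPM in jejunum CD166 libraries. Ces2a differed by -1.07 ± 0.26 (SE; adjusted p = 0.0411) on the log2 scale, with overlap between ileum crypt 3 and the jejunum crypt libraries. Ces2d-ps, named as a pseudogene, was called lower at low level, with at most 0.457 CPM in any ileum library and 1.80 CPM in jejunum crypt 2. Its ileum LGR5 libraries had no count, so no fold is given. Ces2b and Ces2h were not called by edgeR (-1.81 ± 0.61 for Ces2b), and DESeq2 called Ces2b lower.

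Ces1 genes divided by direction. Ces1e (ENSMUSG00000061959), which in mouse liver holds beta-glucuronidase in the endoplasmic reticulum, had 14, 16.6 and 38.2 CPM in ileum crypt libraries, against 42.2, 47.5 and 87.1 CPM in jejunum crypt libraries. It had 10.9 and 7.75 CPM in ileum LGR5, against 44.6 and 43.6 CPM in jejunum LGR5 libraries, and 11.6 and 9.82 CPM in ileum CD166, against 34.3 and 41.7 CPM in jejunum CD166 libraries. In each population the ileum lay below the jejunum without overlap, with a log2 fold change of -1.81 ± 0.26 (SE; adjusted p = 0.00524). Ces1f had 38.5, 66.8 and 123 CPM in ileum crypt libraries, against 129.6, 252 and 373 CPM in jejunum crypt libraries, and 6.89 and 11.8 CPM in ileum LGR5, against 20.6 and 25.2 CPM in jejunum LGR5 libraries, and 16 and 11.6 CPM in ileum CD166, against 34.3 and 52.8 CPM in jejunum CD166 libraries. Ces1f differed by -1.56 ± 0.31 (SE; adjusted p = 0.0175) on the log2 scale, again without overlap.

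Ces1c (ENSMUSG00000057400), the esterase that mice secrete into plasma, was higher in the ileum. It had 18.9, 13.7 and 2.40 CPM in ileum crypt libraries, against 2.94, 0.539 and 1.25 CPM in jejunum crypt libraries. It had 5.52 and 8.61 CPM in ileum LGR5, against 0.835 and 0.819 CPM in jejunum LGR5 libraries, and 11.6 and 9.95 CPM in ileum CD166, against 2.20 and 2.75 CPM in jejunum CD166 libraries. Each ileum library was above each jejunum library except ileum crypt 3, which lay within the jejunum range. The log2 fold change was 2.68 ± 0.47 (SE; adjusted p = 0.0113), or 6.39-fold higher, and 2.84 ± 0.33 without ileum crypt 3. Ces1c made up 8.02% of the Ces1 counts in ileum LGR5, against 0.475% in jejunum LGR5, and 12.1% in ileum CD166, against 1.59% in jejunum CD166 libraries.

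The other Ces1 members were not called by region in edgeR with all libraries. DESeq2 called Ces1d in the mean of the populations and Ces1g in crypt libraries. Ces1d, a triacylglycerol hydrolase, had 11.6, 14.2 and 21.6 CPM in ileum crypt libraries, against 24.1, 18 and 33.2 CPM in jejunum crypt libraries, and 74.2 and 32.2 CPM in ileum LGR5, against 106 and 83.7 CPM in jejunum LGR5 libraries, and 47.3 and 39.2 CPM in ileum CD166, against 56.3 and 68.2 CPM in jejunum CD166 libraries. Its log2 fold change was -0.68 ± 0.22, and without ileum crypt 3 it was called at -0.78 ± 0.21 (edgeR adjusted p = 0.0499). Ces1g, a lipid-hydrolysing esterase, had 6.61, 8.44 and 8.81 CPM in ileum crypt libraries, against 10.3, 53.6 and 59.8 CPM in jejunum crypt libraries, and 7.45 and 16 CPM in ileum LGR5, against 10.4 and 7.13 CPM in jejunum LGR5 libraries, and 7.48 and 5.87 CPM in ileum CD166, against 7.85 and 8.56 CPM in jejunum CD166 libraries. Only jejunum crypt 2 and jejunum crypt 3 stood high, and the log2 fold change was -0.75 ± 0.35. Ces1b stayed between 0.545 and 4.72 CPM in all libraries (0.65 ± 0.29). Ces3a, the tested member outside Ces1 and Ces2, stayed at or below 3.98 CPM. EdgeR called it lower without ileum crypt 3 (adjusted p = 0.0226) and DESeq2 with all libraries, and no fold is given since both ileum CD166 libraries had no count.

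**Figure D2:**
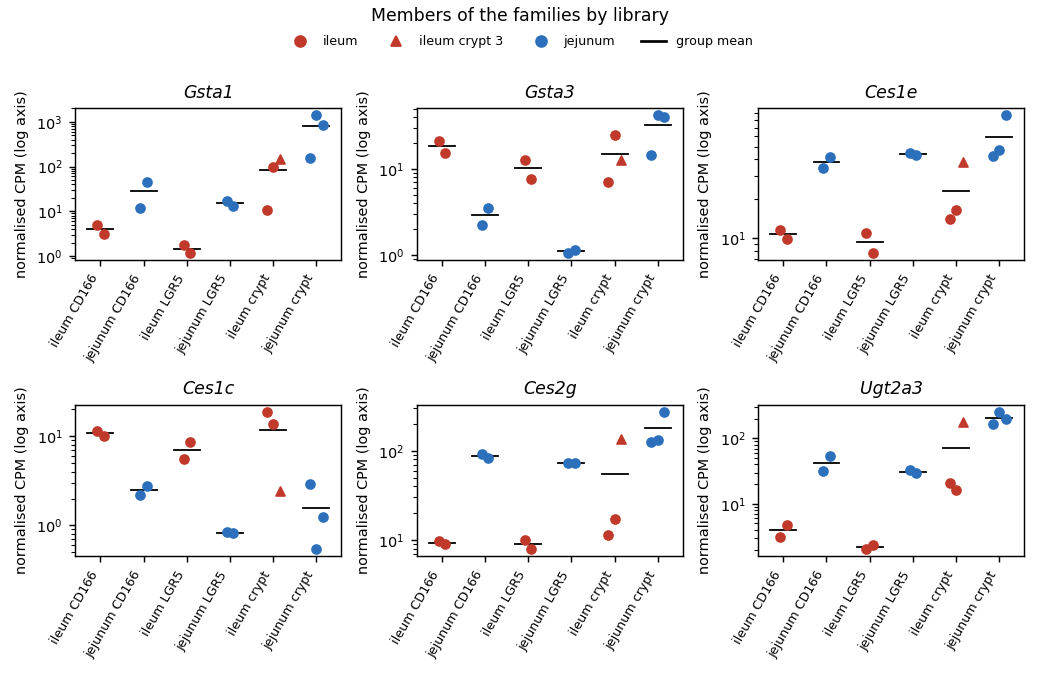
CPM of Gsta1, Gsta3, Ces1e, Ces1c, Ces2g and Ugt2a3 in each library on log axes, with ileum in red left of jejunum in blue for CD166, LGR5 and crypt libraries, bars at group means and a triangle for ileum crypt 3. For Ces2g, Ces1c and Ugt2a3 the triangle sits with the jejunum crypt points, and Gsta3 is higher in the ileum in sorted libraries but not in crypt libraries.

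Among UDP-glucuronosyltransferases 3 of 9 tested members were lower in the ileum, none was higher, and all 9 log2 fold changes were below 0 (median -0.87). Ugt2a3 (ENSMUSG00000035780), which in human glucuronidates bile acids, had 20.7, 16.4 and 180.5 CPM in ileum crypt libraries, against 168, 257 and 195 CPM in jejunum crypt libraries. It had 2.02 and 2.37 CPM in ileum LGR5, against 32.4 and 29.2 CPM in jejunum LGR5 libraries, and 3.14 and 4.78 CPM in ileum CD166, against 31.6 and 53.1 CPM in jejunum CD166 libraries. Ileum crypt 3 reached the jejunum crypt range, and the other ileum libraries were far below their jejunum counterparts. The log2 fold change was -2.91 ± 0.53 (SE; adjusted p = 0.0135), and -3.56 ± 0.19 without ileum crypt 3 (11.8-fold lower).

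The Ugt1a genes each have their own first exon and share the following exons, so reads in the shared part cannot be assigned to 1 gene with certainty. Ugt1a6a (ENSMUSG00000054545), which conjugates planar phenols, had 16, 16.6 and 18 CPM in ileum crypt libraries, against 23.7, 47.1 and 43.7 CPM in jejunum crypt libraries. It had 6.53 and 5.38 CPM in ileum LGR5, against 23.6 and 26 CPM in jejunum LGR5 libraries, and 9.33 and 11 CPM in ileum CD166, against 32.5 and 33.6 CPM in jejunum CD166 libraries. The ileum was lower without overlap in each population, with a log2 fold change of -1.64 ± 0.16 (SE; adjusted p = 0.00195), the smallest adjusted p of the members. Ugt1a9 had 1.82, 0.754 and 16.8 CPM in ileum crypt libraries, against 12, 35.4 and 82.5 CPM in jejunum crypt libraries, and 0.919 and 2.26 CPM in ileum LGR5, against 5.72 and 4.75 CPM in jejunum LGR5 libraries, and 1.20 and 0.51 CPM in ileum CD166, against 11.3 and 9.97 CPM in jejunum CD166 libraries. Ugt1a9 differed by -2.71 ± 0.68 (SE; adjusted p = 0.0441) on the log2 scale, and -3.47 ± 0.49 without ileum crypt 3.

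Ugt1a1, the bilirubin-conjugating enzyme, had 139.7, 194 and 546 CPM in ileum crypt libraries, against 548, 315 and 693 CPM in jejunum crypt libraries. It had 87 and 65.5 CPM in ileum LGR5, against 162 and 140.2 CPM in jejunum LGR5 libraries, and 66 and 82 CPM in ileum CD166, against 176 and 166 CPM in jejunum CD166 libraries. The sorted groups did not overlap and the crypt groups did, and the log2 fold change of -1.01 ± 0.30 missed the threshold (edgeR adjusted p = 0.0832). Ugt1a7c had 159, 215 and 481 CPM in ileum crypt libraries, against 434, 719.9 and 775 CPM in jejunum crypt libraries, and 91.9 and 92.7 CPM in ileum LGR5, against 155 and 135 CPM in jejunum LGR5 libraries, and 117 and 128 CPM in ileum CD166, against 213 and 211 CPM in jejunum CD166 libraries. EdgeR gave -0.87 ± 0.24 in all libraries (adjusted p = 0.0611) and -1.08 ± 0.15 without ileum crypt 3 (adjusted p = 0.00193). With all libraries DESeq2 called both genes and limma-voom Ugt1a7c. In the fit of sorted libraries alone both were lower, with edgeR adjusted p-values of 0.000101 for Ugt1a1 and 0.000932 for Ugt1a7c.

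The Ugt2b genes, which conjugate steroids and drugs, were not called by edgeR in the mean of the populations, and DESeq2 called Ugt2b5 in crypt libraries. Ugt2b34, the UGT member with the most counts, had 503, 465 and 796 CPM in ileum crypt libraries, against 728, 1293 and 942 CPM in jejunum crypt libraries. It had 343 and 349 CPM in ileum LGR5, against 383 and 334 CPM in jejunum LGR5 libraries, and 333 and 303 CPM in ileum CD166, against 355 and 471 CPM in jejunum CD166 libraries. Ugt2b34 differed by -0.39 ± 0.17 on the log2 scale. Ugt2b35 had 82.6, 75.1 and 98.2 CPM in ileum crypt libraries, against 87.3, 286 and 133 CPM in jejunum crypt libraries, and 134 and 71.5 CPM in ileum LGR5, against 153 and 141 CPM in jejunum LGR5 libraries, and 145 and 112 CPM in ileum CD166, against 96.9 and 156 CPM in jejunum CD166 libraries, with jejunum crypt 2 highest. Ugt2b36 and Ugt2b5 gave -0.41 ± 0.23 and -0.86 ± 0.43. Ugt2b5 had 13.5, 17.5 and 22.1 CPM in ileum crypt libraries, against 21.6, 189 and 108 CPM in jejunum crypt libraries, with jejunum crypt 2 and jejunum crypt 3 high and jejunum crypt 1 at the ileum level.

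Among glutathione S-transferases 4 of 22 tested members were lower and 1 was higher in the ileum, with a median log2 fold change of -0.55. The alpha class, which detoxifies electrophiles and lipid peroxidation products, held the widest split. Gsta1 (ENSMUSG00000074183) had 10.7, 99.8 and 146 CPM in ileum crypt libraries, against 153, 1404 and 849 CPM in jejunum crypt libraries. It had 1.75 and 1.18 CPM in ileum LGR5, against 17.3 and 12.9 CPM in jejunum LGR5 libraries, and 4.89 and 3.19 CPM in ileum CD166, against 11.8 and 44.2 CPM in jejunum CD166 libraries. Every ileum library was below every jejunum library of its population, although jejunum crypt 1 at 153 CPM was close to ileum crypt 3. Gsta1 differed by -3.12 ± 0.66 (SE; adjusted p = 0.022) on the log2 scale. Gsta1 and its near copy Gsta2 lie side by side on chromosome 9 and may share reads, and Gsta2 stayed at or below 5.03 CPM.

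Gsta3 (ENSMUSG00000025934), on chromosome 1, ran the other way in sorted cells. It had 12.9 and 7.75 CPM in ileum LGR5, against 1.07 and 1.15 CPM in jejunum LGR5 libraries, and 21.2 and 15.5 CPM in ileum CD166, against 2.27 and 3.57 CPM in jejunum CD166 libraries. In both sorted populations the ileum was above the jejunum without overlap. In crypt libraries it had 7.18, 24.9 and 12.6 CPM in ileum crypt libraries, against 14.4, 42.2 and 40.7 CPM in jejunum crypt libraries, and the groups overlapped. The log2 fold changes were 3.20 ± 0.69 in LGR5, 2.65 ± 0.63 in CD166 and -1.13 ± 0.48 in crypt libraries, with a mean of 1.57 ± 0.34 (SE; adjusted p = 0.0249). The joint test of whether these 3 differences differ gave an unadjusted p of 0.000298 and an adjusted p of 0.4 in edgeR, and an adjusted p of 8.49e-05 in DESeq2. Gsta3 made up 32.5% of the Gsta counts in ileum LGR5, against 4.12% in jejunum LGR5, and 39.8% in ileum CD166, against 7.06% in jejunum CD166 libraries. Gsta1 made up 4.66% in ileum LGR5, against 55.4% in jejunum LGR5, and 8.71% in ileum CD166, against 53.7% in jejunum CD166 libraries.

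Gsta4, which conjugates the lipid aldehyde 4-hydroxynonenal, had 29.4, 87.3 and 71.2 CPM in ileum crypt libraries, against 76.6, 456 and 309.6 CPM in jejunum crypt libraries. It had 20.6 and 18.1 CPM in ileum LGR5, against 10.6 and 10.6 CPM in jejunum LGR5 libraries, and 23.3 and 23.5 CPM in ileum CD166, against 10.2 and 27.4 CPM in jejunum CD166 libraries. EdgeR did not call it in the mean of the populations (-0.33 ± 0.39), and DESeq2 called it in crypt libraries. The differences had the same sign as Gsta3 in each population: -2.16 ± 0.59 in crypt, 0.87 ± 0.73 in LGR5 and 0.32 ± 0.70 in CD166 libraries.

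The mu class genes form a cluster on chromosome 3, in the order Gstm5, Gstm7, Gstm6, Gstm3, Gstm2, Gstm1 and Gstm4 among the members, and all 7 had log2 fold changes below 0 (median -1.31). Near-identical copies make single Gstm values uncertain. Gstm6 had 3.19, 8.44 and 39.6 CPM in ileum crypt libraries, against 41.9, 78.7 and 115 CPM in jejunum crypt libraries, and 3.49 and 3.66 CPM in ileum LGR5, against 18.8 and 16.6 CPM in jejunum LGR5 libraries, and 4.34 and 3.89 CPM in ileum CD166, against 13.4 and 19 CPM in jejunum CD166 libraries. The ileum was lower without overlap in each population, though ileum crypt 3 was close to jejunum crypt 1. Gstm6 was the mu member that edgeR called with all libraries, at -2.16 ± 0.47 (SE, adjusted p = 0.0256). Gstm3 had 20.9, 131 and 592 CPM in ileum crypt libraries, against 599, 749 and 3109.7 CPM in jejunum crypt libraries. It had 20.5 and 12.4 CPM in ileum LGR5, against 67.7 and 60.9 CPM in jejunum LGR5 libraries, and 21.7 and 15.6 CPM in ileum CD166, against 70.8 and 89.1 CPM in jejunum CD166 libraries. It did not overlap in any population either, but ileum crypt 3 was close to jejunum crypt 1 and jejunum crypt 3 stood far above the other libraries. Its log2 fold change of -2.22 ± 0.63 missed the threshold (edgeR adjusted p = 0.0741) and passed it without ileum crypt 3 at -2.79 ± 0.52 (adjusted p = 0.00816).

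Gstm1 had 23, 127 and 232 CPM in ileum crypt libraries, against 245, 486 and 1762 CPM in jejunum crypt libraries, and 51.3 and 47.2 CPM in ileum LGR5, against 83.2 and 75.4 CPM in jejunum LGR5 libraries, and 47.4 and 30.5 CPM in ileum CD166, against 70.4 and 69.9 CPM in jejunum CD166 libraries. Again jejunum crypt 3 was highest, and the log2 fold change was -1.41 ± 0.51 (edgeR adjusted p = 0.153). Gstm2 had 15.7, 34.5 and 48.6 CPM in ileum crypt libraries, against 52, 45.3 and 158 CPM in jejunum crypt libraries, and 30 and 22.8 CPM in ileum LGR5, against 34 and 37.5 CPM in jejunum LGR5 libraries, and 22.8 and 19.4 CPM in ileum CD166, against 33.4 and 34.3 CPM in jejunum CD166 libraries, with -0.83 ± 0.31. Gstm4 had 9.23, 18.1 and 32.2 CPM in ileum crypt libraries, against 31.3, 79.1 and 169.5 CPM in jejunum crypt libraries, and 7.91 and 8.07 CPM in ileum LGR5, against 13.2 and 10.1 CPM in jejunum LGR5 libraries, and 8.03 and 9.12 CPM in ileum CD166, against 14.9 and 13.4 CPM in jejunum CD166 libraries. In edgeR both missed the threshold with all libraries, and Gstm4 (-1.16 ± 0.36) and Gstm7 (-1.31 ± 0.36) passed it without ileum crypt 3. DESeq2 called Gstm1, Gstm3, Gstm4, Gstm6 and Gstm7 with all libraries. In the sorted libraries alone edgeR called every mu member lower except Gstm5. Gstm7 had 3.42, 6.93 and 21.7 CPM in ileum crypt libraries, against 21.7, 32.7 and 49.2 CPM in jejunum crypt libraries, and 5.97 and 4.63 CPM in ileum LGR5, against 12.2 and 11.5 CPM in jejunum LGR5 libraries, and 5.17 and 7.01 CPM in ileum CD166, against 13.6 and 12.3 CPM in jejunum CD166 libraries. Gstm5, at one end of the cluster, had a regional log2 fold change of -0.18 ± 0.16.

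Of the other cytosolic GST genes, Gstk1 and Gstt1 were lower in the ileum. Gstk1, the kappa enzyme of mitochondria and peroxisomes, had 12.4, 13.9 and 46.8 CPM in ileum crypt libraries, against 49.8, 93.3 and 98.9 CPM in jejunum crypt libraries. It had 5.52 and 5.38 CPM in ileum LGR5, against 11 and 10.4 CPM in jejunum LGR5 libraries, and 5.82 and 7.97 CPM in ileum CD166, against 14.1 and 17.4 CPM in jejunum CD166 libraries. The groups did not overlap in any population, though ileum crypt 3 was close to jejunum crypt 1. The log2 fold change was -1.29 ± 0.31 (SE, edgeR adjusted p = 0.0355). Gstt1, a theta enzyme that acts on small halogenated compounds, had 14.7, 22.3 and 50.8 CPM in ileum crypt libraries, against 47.6, 133 and 122 CPM in jejunum crypt libraries, and 34.5 and 23 CPM in ileum LGR5, against 34.9 and 34.2 CPM in jejunum LGR5 libraries, and 18.2 and 28.6 CPM in ileum CD166, against 67.2 and 78.2 CPM in jejunum CD166 libraries. The LGR5 groups overlapped and the crypt groups did too, through ileum crypt 3, while the CD166 groups did not. The mean log2 fold change was -1.23 ± 0.31 (SE; adjusted p = 0.0432).

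EdgeR called none of the remaining 6 cytosolic members and 3 membrane-bound Mgst genes in the mean of the populations. Of these 9, 4 had an unadjusted p under 0.05 (Gsto1, Gstp1, Gstp2 and Mgst3), as had 2606 of all 14750 genes. DESeq2 and limma-voom called none of them there, and DESeq2 called Gstp2 and Mgst3 in crypt libraries. Gsto1, the omega enzyme that reduces dehydroascorbate, had 331, 410 and 514 CPM in ileum crypt libraries, against 501, 627 and 699 CPM in jejunum crypt libraries. It had 347 and 291 CPM in ileum LGR5, against 394 and 318 CPM in jejunum LGR5 libraries, and 349 and 421 CPM in ileum CD166, against 506 and 480.1 CPM in jejunum CD166 libraries. Its log2 fold change was -0.35 ± 0.14 with overlap in the crypt and LGR5 groups. Gstp1, which has the near copy Gstp2, gave -0.42 ± 0.16, Gstp2 gave -0.48 ± 0.17 and Gstz1, an enzyme of tyrosine breakdown, gave -0.25 ± 0.12. Gstp2 nevertheless lay lower in the ileum without overlap in each population, by a narrow margin in each. Gstt2, Gstt3, Mgst1, Mgst2 and Mgst3 gave -0.18 ± 0.18, -0.06 ± 0.16, -0.21 ± 0.16, 0.34 ± 0.33 and -0.65 ± 0.24. Mgst2 had opposite signs, at -1.10 ± 0.49 in crypt, 0.72 ± 0.60 in LGR5 and 1.38 ± 0.61 in CD166 libraries, and Mgst3 was at -1.32 ± 0.37 in crypt libraries.

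None of the 6 tested sulfotransferases was called by region in edgeR with all libraries. Of these 6, 3 had an unadjusted p under 0.05 in edgeR, as had 2606 of all 14750 genes. DESeq2 called Sult1a1 and Sult1b1, and limma-voom called 0. Sult1b1, which sulfates phenols and thyroid hormone, had 171, 133 and 330.5 CPM in ileum crypt libraries, against 327, 729.8 and 394 CPM in jejunum crypt libraries. It had 32 and 26.2 CPM in ileum LGR5, against 52.1 and 43.7 CPM in jejunum LGR5 libraries, and 39.3 and 38.8 CPM in ileum CD166, against 43.7 and 79.7 CPM in jejunum CD166 libraries. The regional difference was -0.86 ± 0.25 on the log2 scale (edgeR adjusted p = 0.0849), and -1.02 ± 0.22 without ileum crypt 3, where it was called (adjusted p = 0.017). In the sorted libraries alone edgeR called Sult1b1 lower, at -0.70 ± 0.18 (adjusted p = 0.0274).

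Sult1a1, a phenol sulfotransferase, lay on the other side, with 2.74 to 15.5 CPM in ileum libraries, against 1.42 to 5.21 CPM in jejunum libraries. This gave a log2 fold change of 1.40 ± 0.40 (edgeR adjusted p = 0.0699), and 1.53 ± 0.36 without ileum crypt 3 (adjusted p = 0.0269). Sult1c2, with 3.32 to 19.5 CPM in ileum libraries, against 3.49 to 10.7 CPM in jejunum libraries, gave 0.78 ± 0.30, and 0.91 ± 0.22 without ileum crypt 3 (edgeR adjusted p = 0.0306). EdgeR also called Sult1c2 higher in the sorted libraries alone, at 0.83 ± 0.22 (adjusted p = 0.0285). Sult1d1, which sulfates catecholamines in mouse, had 315, 197 and 401 CPM in ileum crypt libraries, against 389, 872 and 403 CPM in jejunum crypt libraries. It had 89.7 and 88.8 CPM in ileum LGR5, against 106 and 105 CPM in jejunum LGR5 libraries, and 136 and 153 CPM in ileum CD166, against 143 and 211 CPM in jejunum CD166 libraries, with overlap in the crypt and CD166 groups and a log2 fold change of -0.47 ± 0.22. Sult2b1, which sulfates cholesterol and pregnenolone, differed little by region, at -0.11 ± 0.13.

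Within single populations few members passed the threshold. Among crypt libraries edgeR called 0 of 51 members, as of all genes (0%), although 35 members had an unadjusted p under 0.05. Over all 14750 genes 1899 did so. DESeq2 called 18 and limma-voom 0. Without ileum crypt 3, edgeR called 19 members in crypt cells, 18 lower and 1, Ces1c, higher in the ileum, where 4.17% of all genes were called, 2.56% lower and 1.6% higher. Ugt1a9, Gstm3, Gstm6, Ces2g and Ugt2a3 were then at log2 fold changes of -5.03 ± 0.88, -4.30 ± 0.94, -3.77 ± 0.51, -3.66 ± 0.38 and -3.47 ± 0.31. With ileum crypt 3 kept and jejunum crypt 1 left out, 7 members were called. For that fit and for DESeq2 the share over all genes is not given.

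Among LGR5 libraries edgeR called 1 member, Ugt1a6a, at -2.05 ± 0.30 (SE; adjusted p = 0.0281), where 0.698% of all genes were called. DESeq2 called 6 and limma-voom 0. Without ileum crypt 3, which enters only the shared estimate of spread, 8 members were called, where 2.42% of all genes were. Ces1c and Gsta3 were higher in the ileum (1.72% of all genes), and Ces1e, Ces2e, Ces2g, Gstm6, Ugt1a6a and Ugt2a3 were lower (0.706% of all genes). In CD166 libraries edgeR called 0 members, where 0.0203% of all genes were called, 0.0136% higher and 0.00678% lower. There 17 of the members had an unadjusted p under 0.05 in edgeR, as had 938 of all 14750 genes. DESeq2 called 5 members and limma-voom called 0. Without ileum crypt 3 the 5 called CD166 members were Ces1e, Ces2e, Ces2g, Ugt1a6a and Ugt2a3, all lower in the ileum, where 0.76% of all genes were called and 0.502% were lower.

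Counting libraries alone, 11 members lay lower in the ileum without overlap in every population: Ces1e, Ces1f, Ces2c, Ces2d-ps, Gsta1, Gstk1, Gstm1, Gstm3, Gstm6, Gstp2 and Ugt1a6a. Of all genes 1.44% did so. In crypt libraries the closest values of all 11 were those of ileum crypt 3 and jejunum crypt 1, the most alike pair, and margins were mostly narrow. Gstm3 had 592 and 599 CPM in these libraries, Ces2c 103 and 105 CPM, and Gstm6 39.6 and 41.9 CPM. There were 23 such members without ileum crypt 3, where 3.53% of all genes did so. No member was higher without overlap in every population (1.45% of all genes), and without ileum crypt 3 Ces1c and Sult1a1 were (3.95% of all genes).

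The test of whether the regional difference differed between populations called 0 of 51 members in edgeR, where 0.0136% of all genes were called. Of the members, 5 had an unadjusted p under 0.05 in edgeR: Gsta3, Gsta4, Ces1g, Mgst2 and Ugt2b5. Over all 14750 genes 807 did so. DESeq2 called Gsta3 and limma-voom called 0. In each of the 5 the crypt difference was negative, from -2.58 ± 0.61 for Ugt2b5 to -1.10 ± 0.49 for Mgst2. Their LGR5 difference was positive, from 0.35 ± 0.84 for Ugt2b5 to 3.20 ± 0.69 for Gsta3. The 5 were picked because their differences varied between populations, so opposed signs partly follow from that choice and are no separate result. For all 5 the crypt difference went with high values in jejunum crypt 2 and jejunum crypt 3, which also had the highest summed enterocyte markers; their part was not tested.

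Summed over all members, levels were lower in the sorted than in the crypt libraries of each region, as a description without a test. The sum was 2038 to 2703 CPM in ileum LGR5 and CD166 libraries, against 3703, 4196 and 7698 CPM in ileum crypt libraries. It was 2813 to 3934 CPM in jejunum LGR5 and CD166 libraries, against 7569.7, 14023 and 16793 CPM in jejunum crypt libraries. No sorted library reached any crypt library except jejunum CD166 2, at 3934 CPM, which exceeded ileum crypt 1. By family, the CES sum in jejunum was 464 ± 46.4 CPM in LGR5 (SD, n = 2) and 519 ± 50.3 CPM in CD166 libraries (SD, n = 2), against 2784 ± 1024 CPM in crypt libraries (SD, n = 3). The SULT sum in jejunum was 172 ± 7.46 CPM in LGR5 (SD, n = 2) and 262 ± 81.9 CPM in CD166 libraries (SD, n = 2), against 1142 ± 507 CPM in crypt libraries (SD, n = 3).

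**Figure D3:**
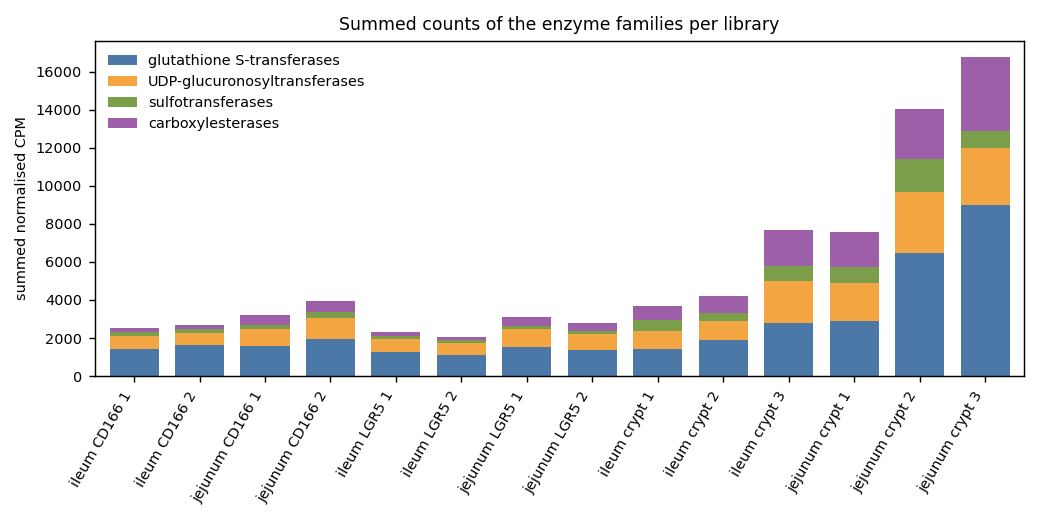
Summed CPM of all members per library, stacked by family (GST, UGT, SULT, CES), with ileum left of jejunum for CD166, LGR5 and crypt libraries. The bars of sorted libraries end between 2038 and 3934 CPM and those of crypt libraries between 3703 and 16793 CPM, where jejunum crypt 2 and jejunum crypt 3 stand highest.

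Averaged over the 2 regions, 37 of 51 members differed between LGR5 and crypt libraries, 34 lower and 3 higher in LGR5 (edgeR, adjusted p under 0.05), where 31.5% of all genes were called, 18.5% lower and 13% higher. For CD166 against crypt, 34 members differed, 31 lower and 3 higher, where 30.1% of all genes were called, 16.5% lower and 13.6% higher. The median log2 fold change was -1.89 in LGR5 and -1.41 in CD166, against -0.01 for LGR5 and 0.02 for CD166 over all genes. Without Ces2d-ps, Ces2h and Ces3a the medians of the members were -1.69 in LGR5 and -1.36 in CD166. These comparisons share their crypt libraries. The same lists of enterocyte markers (10 of 10 lower, summed 471 to 2099 CPM in sorted libraries, against 5791 to 49070.3 CPM in crypt libraries) and lymphocyte markers (6 of 6 lower) moved with them, and their part was not tested.

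By family, LGR5 libraries had 9 of 14 CES members lower and 2 higher, 14 of 22 GST members lower and 1 higher, 8 of 9 UGT members lower and 3 of 6 SULT members lower than crypt libraries. CD166 libraries had 10 of 14 CES lower and 2 higher, 11 of 22 GST lower and 1 higher, 7 of 9 UGT lower and 3 of 6 SULT lower. Without ileum crypt 3, 34 members were called in LGR5 and 30 in CD166, where 26.6% of all genes were called in LGR5 and 25.3% in CD166. Leaving out each library in turn, 25 of the 37 LGR5 calls and 22 of the 34 CD166 calls remained in every fit.

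Sult2b1 had the smallest adjusted p of the members in both comparisons. Sult2b1 had 7.45 and 6.67 CPM in ileum LGR5 and 10.4 and 11.9 CPM in ileum CD166, against 68, 59.8 and 74 CPM in ileum crypt libraries. It had 7.27 and 6.14 CPM in jejunum LGR5 and 8.68 and 12.4 CPM in jejunum CD166, against 75, 111 and 99.2 CPM in jejunum crypt libraries. All sorted libraries were far below all crypt libraries in both regions. The log2 fold change was -3.54 ± 0.17 in LGR5 (SE; adjusted p = 1.76e-06) and -2.88 ± 0.16 in CD166 (SE; adjusted p = 1.11e-05).

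Gsta1, Gstm3, Ces2c, Ces2e and Ugt2a3 were lower in both comparisons too, each with a wider error than Sult2b1. Gsta1 was at -5.79 ± 0.92 in LGR5 and -4.63 ± 0.84 in CD166. Gstm3 was at -4.22 ± 0.87 and -3.98 ± 0.85, Ces2c at -4.01 ± 0.39 and -3.49 ± 0.38, Ces2e at -3.54 ± 0.30 and -2.96 ± 0.29, and Ugt2a3 at -3.90 ± 0.69 and -3.23 ± 0.65, each for LGR5 and then CD166. All of these calls had an adjusted p at or below 0.00566. Leaving out ileum crypt 3 moved Gstm3 to -3.37 ± 0.65 in LGR5 and -3.12 ± 0.64 in CD166, and Ugt2a3 to -2.91 ± 0.23 in LGR5 and -2.25 ± 0.22 in CD166, still called. Gsta1 was at -5.26 in CD166 without jejunum CD166 2. Ces2h and Ces3a were called lower too, Ces3a in CD166 not without ileum crypt 3, but had no count in some sorted groups, so no fold is given. Sult1b1 (-3.10 ± 0.34 in LGR5 and -2.70 ± 0.33 in CD166) and Sult1d1 (-2.08 ± 0.29 in LGR5 and -1.36 ± 0.28 in CD166) fell in both.

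Among the Ugt genes, Ugt2b34 fell by 1.11 ± 0.21 in LGR5 and 1.07 ± 0.21 in CD166 on the log2 scale. Ugt2b36 was at -2.12 ± 0.30 in LGR5 and -1.72 ± 0.29 in CD166, and Ugt2b5 at -3.91 ± 0.57 in LGR5 and -3.13 ± 0.53 in CD166. All 4 tested Ugt1a genes were lower in LGR5, and 3 of them, all but Ugt1a6a, in CD166. Ugt1a9 was called in neither comparison without ileum crypt 3, at -1.40 ± 0.58 in LGR5 and -1.35 ± 0.58 in CD166. In single libraries Ugt2b36 had 5.61 and 5.81 CPM in ileum LGR5 and 6.19 and 5.67 CPM in ileum CD166, against 17.3, 17.8 and 16.4 CPM in ileum crypt libraries. It had 4.17 and 5.82 CPM in jejunum LGR5 and 5.92 and 11 CPM in jejunum CD166, against 17.8, 49.6 and 28.2 CPM in jejunum crypt libraries. No sorted library overlapped a crypt library of its region.

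**Figure D4:**
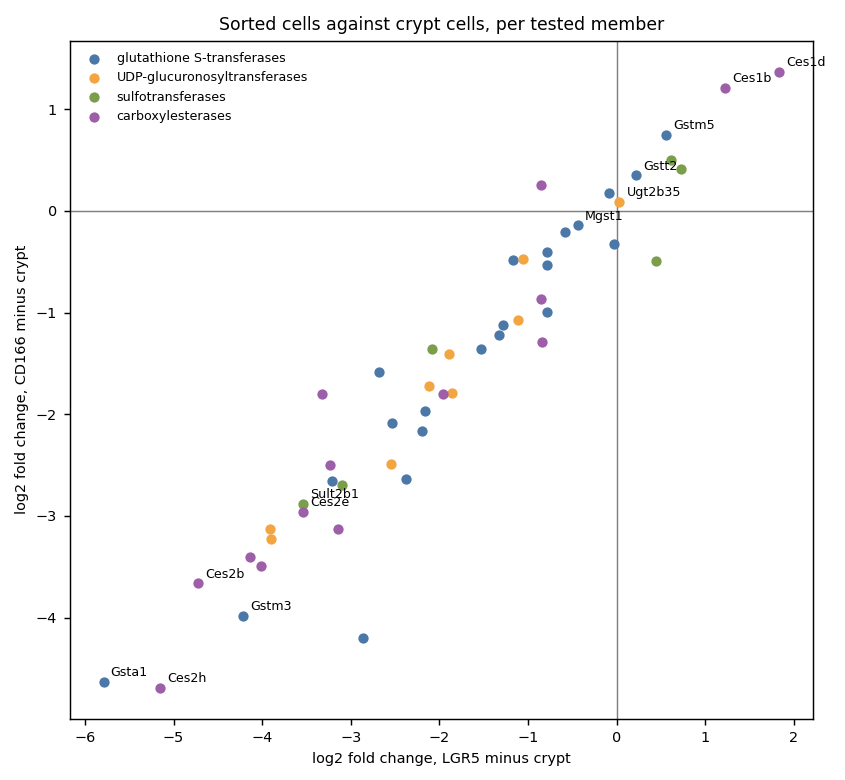
Log2 fold change of each tested member in CD166 against crypt libraries (vertical) over that in LGR5 against crypt libraries (horizontal), averaged over the 2 regions, coloured by family. Both axes share the crypt libraries; most members lie at the lower left, with Gsta1 at -5.79 and -4.63, and Ces1d, Ces1b and Gstm5 at the upper right. Ces2d-ps, Ces2h and Ces3a were fitted against groups with no count, so their positions are no measure of size.

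Ces1d, Ces1b and Gstm5 were the 3 members called higher in LGR5 and in CD166 libraries. Ces1d had 74.2 and 32.2 CPM in ileum LGR5 and 47.3 and 39.2 CPM in ileum CD166, against 11.6, 14.2 and 21.6 CPM in ileum crypt libraries. It had 106 and 83.7 CPM in jejunum LGR5 and 56.3 and 68.2 CPM in jejunum CD166, against 24.1, 18 and 33.2 CPM in jejunum crypt libraries. Every sorted library was above every crypt library of its region. Ces1d differed by 1.83 ± 0.26 on the log2 scale in LGR5 (SE; adjusted p = 0.000573) and 1.37 ± 0.26 in CD166 (SE; adjusted p = 0.00278). Ces1d made up 54.7% of the Ces1 counts in ileum LGR5 and 48.4% in ileum CD166, against 11.8% in ileum crypt libraries, and 54.2% in jejunum LGR5 and 39.9% in jejunum CD166, against 7.43% in jejunum crypt libraries.

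Ces1b, at 1.58 to 4.72 CPM in sorted libraries, against 0.545 to 2.71 CPM in crypt libraries, was at 1.22 ± 0.35 in LGR5 and 1.21 ± 0.34 in CD166. Gstm5 had 32.4 and 25.9 CPM in ileum LGR5 and 31.7 and 35.7 CPM in ileum CD166, against 17.1, 27.1 and 22.5 CPM in ileum crypt libraries. It had 40.8 and 30.8 CPM in jejunum LGR5 and 40.8 and 40.5 CPM in jejunum CD166, against 20.3, 15.5 and 29.1 CPM in jejunum crypt libraries. Ileum LGR5 2 lay below ileum crypt 2, and the other sorted groups lay above the crypt libraries of their region. The LGR5 difference of 0.55 ± 0.19 was close to the threshold (edgeR adjusted p = 0.0442) and was lost in 12 of 14 fits that left out 1 library, ileum crypt 3 included. The CD166 difference of 0.75 ± 0.19 (adjusted p = 0.0118) was lost in 1, without ileum CD166 2. Of the other Gstm members, Gstm1, Gstm3, Gstm4, Gstm6 and Gstm7 were called lower in LGR5, Gstm7 not without ileum crypt 3, where Gstm6 was at -1.41 ± 0.34, against -2.20 ± 0.58 in all libraries.

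Gstz1, Gstt2, Gstt3, Mgst1 and Ugt2b35 were among the members that edgeR called in neither comparison. Gstz1 had 56.5, 63 and 77.8 CPM in ileum crypt libraries, against 74.9, 77.5 and 100.4 CPM in jejunum crypt libraries, and 63.1 and 64.5 CPM in ileum LGR5, against 84.4 and 69.9 CPM in jejunum LGR5 libraries, and 70.5 and 91.2 CPM in ileum CD166, against 80.9 and 95.6 CPM in jejunum CD166 libraries. Its log2 fold changes were -0.09 ± 0.14 in LGR5 and 0.18 ± 0.14 in CD166. Gstt2 was at 0.22 ± 0.21 and 0.35 ± 0.21, Gstt3 at -0.03 ± 0.19 and -0.33 ± 0.20, Mgst1 at -0.44 ± 0.20 and -0.14 ± 0.19, and Ugt2b35 at 0.03 ± 0.31 and 0.09 ± 0.31, each for LGR5 and then CD166. Mgst1, a membrane-bound enzyme of the endoplasmic reticulum and mitochondria, had 259, 212 and 216 CPM in ileum crypt libraries, against 231, 372 and 280.5 CPM in jejunum crypt libraries, and 198 and 138 CPM in ileum LGR5, against 219.8 and 217 CPM in jejunum LGR5 libraries, and 275 and 215 CPM in ileum CD166, against 167 and 285 CPM in jejunum CD166 libraries. Mgst2 had 199, 153 and 122 CPM in ileum crypt libraries, against 132, 638 and 245 CPM in jejunum crypt libraries, and 86.1 and 120.2 CPM in ileum LGR5, against 57.6 and 67.2 CPM in jejunum LGR5 libraries, and 124 and 167 CPM in ileum CD166, against 34.3 and 77.7 CPM in jejunum CD166 libraries. Mgst3 had 169.7, 173 and 249 CPM in ileum crypt libraries, against 269, 802 and 407 CPM in jejunum crypt libraries, and 107 and 125 CPM in ileum LGR5, against 161 and 169 CPM in jejunum LGR5 libraries, and 165 and 261 CPM in ileum CD166, against 183 and 287 CPM in jejunum CD166 libraries. In both genes jejunum crypt 2 was highest. Mgst2 and Mgst3, linked to leukotriene C4 synthesis, were lower in LGR5 (-1.53 ± 0.41 and -1.17 ± 0.30), and Mgst2 in CD166 (-1.36 ± 0.40).

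Gsto1 was lower in LGR5 (-0.58 ± 0.17, adjusted p = 0.0229) and not called by edgeR in CD166 (-0.21 ± 0.17). Gstp1 had 94.8, 119.8 and 159 CPM in ileum crypt libraries, against 159.7, 137 and 235 CPM in jejunum crypt libraries, and 78.5 and 66.9 CPM in ileum LGR5, against 112 and 91.4 CPM in jejunum LGR5 libraries, and 80.8 and 107 CPM in ileum CD166, against 107 and 119 CPM in jejunum CD166 libraries. It was lower in LGR5 (-0.79 ± 0.19, adjusted p = 0.0108) and not called by edgeR in CD166 (-0.53 ± 0.19), where DESeq2 called it, while Gstp2 was lower in both (-1.33 ± 0.21 in LGR5 and -1.22 ± 0.20 in CD166). Gstp2 had 17.2, 25.5 and 30.9 CPM in ileum crypt libraries, against 31.3, 56.6 and 49.6 CPM in jejunum crypt libraries, and 10.6 and 13.3 CPM in ileum LGR5, against 14.8 and 14.8 CPM in jejunum LGR5 libraries, and 12.8 and 13.8 CPM in ileum CD166, against 14.7 and 16.4 CPM in jejunum CD166 libraries, so each sorted library was below each crypt library.

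Between CD166 and LGR5 libraries edgeR called 0 of 51 members, where 1.61% of all genes were called, all of them higher in CD166. It again called 0 members without ileum crypt 3, where 1.69% of all genes were called. Of the 51 members 5 had an unadjusted p under 0.05 in edgeR: Gsta3, Mgst3, Sult1d1, Sult2b1 and Ugt1a6a, each higher in CD166. Over all 14750 genes 1363 did so, a similar share, so these 5 are not read as a result about the members. DESeq2 and limma-voom called 0 members. The median log2 fold change, CD166 minus LGR5, was 0.26 over the members and 0.00 over all genes.

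**Figure D5:**
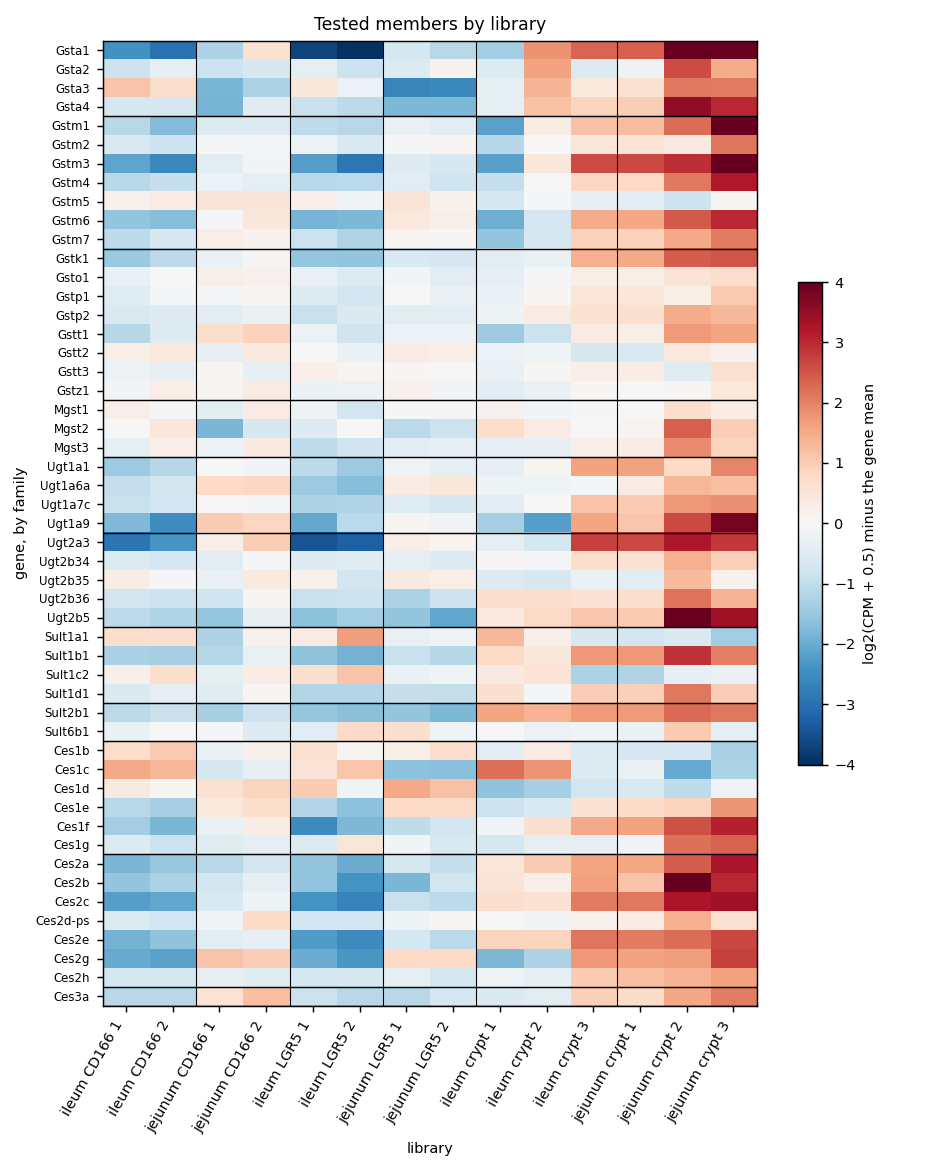
Log2(CPM + 0.5) of each tested member minus its mean over the 14 libraries, red above and blue below the mean, with genes grouped by family and libraries by group, CD166 and LGR5 left of crypt and ileum left of jejunum. Ileum crypt 3 looks like jejunum crypt 1, sorted columns are mostly blue for Gsta1, Sult1b1, Sult1d1 and most Ces2 genes, and Ces1d and Gstm5 are redder in sorted columns. For Gsta1, jejunum CD166 2 lies above the gene's mean and ileum crypt 1 below it.

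Genes that supply or serve the conjugating enzymes were read from lists of known pathway genes. By region, 1 of 12 tested glutathione synthesis and turnover genes was called, Anpep, a peptidase that is also an enterocyte marker, lower in the ileum. None of 6 genes on the list of UDP-glucuronic acid supply was called by edgeR, with 2 at an unadjusted p under 0.05. That list also held Gusb, which removes glucuronic acid, and Slc35a3, a transporter of another sugar nucleotide. Of 8 genes of sulfate donor supply and sulfate removal, Impad1 was higher in the ileum. Of 12 known NRF2 and AHR target genes outside the families edgeR called none, with 3 at an unadjusted p under 0.05, and the median was 0.08. Over all 14750 genes 2606 had such a p by region. Of 14 other conjugating and hydrolytic enzymes, Aadac, an arylacetamide deacetylase (-2.49 ± 0.38), Bche, butyrylcholinesterase (-1.35 ± 0.28), and Ephx2, soluble epoxide hydrolase (-2.07 ± 0.46), were lower and none was higher.

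Of 8 conjugate exporters, Abcb1a, an efflux pump (1.24 ± 0.13), and Osta, part of the basolateral bile acid exporter (0.74 ± 0.18), were higher in the ileum, and Abcc2, the apical pump for glucuronide and glutathione conjugates (-1.02 ± 0.24), was lower (SE, edgeR adjusted p at most 0.0355). Of 23 regulators of drug metabolism genes, Gata4, Creb3l3 and Nr1i3 were lower and Nr1h4, the bile acid receptor FXR, was higher. Nr1i3, the xenobiotic receptor CAR, had 3.58 and 4.84 CPM in ileum LGR5, against 19.8 and 31.5 CPM in jejunum LGR5, 6.28 and 5.93 CPM in ileum CD166, against 13.6 and 32.1 CPM in jejunum CD166, and 18.4, 24.1 and 65.2 CPM in ileum crypt, against 67.4, 152 and 114 CPM in jejunum crypt libraries. Ileum and jejunum did not overlap in any population, and the log2 fold change was -2.05 ± 0.34 (SE, adjusted p = 0.0101).

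Leaving out ileum crypt 3 added regional calls on 5 of these 7 lists. Among glutathione genes 3 were then lower (Anpep, Ggt1 and Hagh) and 1, Chac1, higher. Of the sulfate genes Bpnt1 and Papss2 were lower and Impad1 and Slc26a2 higher. Cyp1a1 was lower among the NRF2 and AHR targets, Abcc4 was higher among the exporters, and Hnf4g and Nfe2l2 joined the lower regulators. No gene on the UDP-glucuronic acid list was called, and the same 3 other enzymes were.

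In LGR5 against crypt libraries, 6 of 12 glutathione genes, 4 of 6 genes on the UDP-glucuronic acid list, 5 of 8 exporters and 7 of 12 NRF2 and AHR targets were lower. In the same comparison 4 of 8 sulfate genes, 6 of 14 other enzymes and 9 of 23 regulators were lower. Gusb of the UDP-glucuronic acid list, Abcc1 of the exporters, Bphl and Gstcd of the other enzymes, Impad1 and Slc35b2 of the sulfate list and the regulators Foxa2 and Foxa3 were higher. Gusb and Slc35b2 were not called higher with ileum crypt 3 left out.

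Over the 14 libraries the log2 CPM of the member with the most counts in each family was set against all other tested genes, as a description without a test, since the libraries share region, population and cell content. Ces2e was most like Cyp2d26 (r = 0.993), Mogat2 (r = 0.992) and Slc26a6 (r = 0.991). Ugt2b34 was most like Il18 (r = 0.981), Slc46a1 (r = 0.979) and Hpgd (r = 0.978). Sult1d1 was most like Pnp2, Nipsnap3b and Lypla1 (r = 0.981 each), and Gsto1 most like Ddc (r = 0.961), Pcp4l1 (r = 0.944) and Slc25a5 (r = 0.937).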

How the data were processed

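RNA of 14 libraries was sequenced with the TruSeq kit as single-end 50-base reads, per the labels' protocols. Per the submitters' processing notes, the genome build was mm9 and DESeq was among the tools; which aligner, counter and gene models were used is not given in the sources used here. The files deposited by the authors hold expected counts per gene, although their names say RPKM: totals differ between libraries and 50.6% of values above 0 are whole within 0.001. The second deposited file of each library holds log2 values centred on the gene's median, equal within 1.2e-06 to those computed from the counts over 8826 genes of at least 50 counts, and was tested with limma as an alternative.

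Counts were rounded and tested in edgeR 4.0.16 (R 4.3.3) with filterByExpr (minimum count 10, minimum total 15), TMM, 6 group means in 1 model, a robust quasi-likelihood F-test and Benjamini-Hochberg adjustment over 14750 genes; called means adjusted p under 0.05. Alternatives were DESeq2 1.42.0, limma-voom 3.58.1, other filters and scalings, the replicate number as a block, and each library left out. The fit was tested on simulated data, with the same mean in every group except for the changed genes. By region it recovered 55% of 2-fold and 94% of 4-fold changes. For LGR5 against crypt it recovered 44% and 82%, and for CD166 against crypt 40% and 77%. No simulated library stood apart as ileum crypt 3 does. Near-identical copies (Ugt1a, Gsta, Gstm, Gstp, Ces1, Ces2) may share reads, so single members are uncertain. Promoters were read from a RefSeq table (GRCm38.p6), which held 68 of the 80 member symbols.

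Members and lists were chosen with earlier results of these data known. By the naming rule, members called in the mean regional, interaction or population comparisons and the 3 of highest mean CPM per family were chosen, and those with a mean of at least 10 CPM have library values; others have ranges. Ces1c is given in full although its mean is lower.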

Additional observations from a re-analysis of the deposited data

How the results depend on the processing

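No called member changed direction under any alternative. Counts of called members depended on the libraries and the test, and the cause was not tested. The share called among all genes moved too, in crypt cells by region from 0% to 4.17% without ileum crypt 3. For the other settings in this section that share is not given, so their counts are not read as a result about the members. For the mean regional difference, 16 members were called, against 10 with no filter on low counts, 26 with DESeq2 and 32 without ileum crypt 3 and jejunum crypt 1 together (added after seeing the data); leaving out 1 library gave 3 to 26. The libraries that moved it most were ileum crypt 3 (26), jejunum CD166 2 (3), jejunum LGR5 1 and 2 (4 each), ileum LGR5 2 and ileum CD166 2 (5 each), and ileum LGR5 1, ileum CD166 1 and jejunum CD166 1 (7 each); without a sorted library its group has 1 library, which is assumed to vary like the others. Calls were lost in 11 of 14 such fits for Gstt1, Gstk1 and Ugt1a9, in 10 for Ces2a, in 9 for Gstm6 and (of 13) Ces2d-ps, in 8 for Gsta3 and Ces2g, in 7 for Gsta1, in 5 for Ces1f and Ugt2a3, in 4 for Ces1c and in 3 for Ces2e.

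For crypt cells by region, 0 members were called, against 18 with DESeq2 and 28 without both libraries, and 0 to 19 leaving out 1 library. For LGR5 by region, 1 was called, against 6 with DESeq2, 0 with limma-voom, 22 in a fit of the compared groups only, 4 without the crypt libraries high in Xist and 10 without both libraries, and 0 to 8 leaving out 1 library. For CD166 by region, 0 were called, against 1 with no filter, 5 with DESeq2, 17 in a fit of the compared groups only, 1 without the crypt libraries high in Xist and 9 without both libraries, and 0 to 5 leaving out 1 library. The interaction gave 0, and 1 with DESeq2. CD166 against LGR5 gave 0, and 6 in a fit of the compared groups only. CD166 against crypt gave 34, and 22 to 37 leaving out 1 library, the lowest without ileum CD166 2. LGR5 against crypt gave 37, and 26 to 39 leaving out 1 library.

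With the replicate block, 26 members were called in the mean regional difference, 4 in LGR5 and 2 in CD166 by region. Same-numbered libraries did not deviate together throughout: of 31 correlations, from -0.40 to 0.33, 8 were above 0.1, so the numbers were not taken as pairs. Where both groups have 2 libraries, both numbers give the same value, so the 31 are not separate checks. Jejunum crypt against CD166 libraries was positive throughout, from 0.14 to 0.28. The check cannot show whether same-numbered libraries shared mice or batches. With 2 or 3 libraries a group, differences of low members such as Ces3a and Gsta2 were not well measured at this depth.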

Other observations

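Sorted CD166 libraries differed from crypt libraries in markers of other cell types that the enzyme families were not read against. Of 7 enteroendocrine markers 4 were higher in CD166 than in crypt libraries (Cck, Chgb, Neurod1 and Sct), of 5 tuft cell markers 4 were higher (Dclk1, Pou2f3, Rgs13 and Trpm5), and of 6 Paneth cell markers 2 were higher (Defa24 and Mmp7), by edgeR's quasi-likelihood test at an adjusted p under 0.05. In LGR5 against crypt libraries 4 of 7 enteroendocrine and 4 of 6 Paneth markers were lower, and 2 of 5 tuft cell markers were higher. All 5 stromal markers were lower in LGR5 and 4 of 5 in CD166 than in crypt libraries, and 1 of 7 goblet cell markers, Zg16, was lower in each. Of 5 tested hepatocyte markers Ttr was higher in LGR5 and Alb, Serpina1a and Ttr were higher in CD166 libraries. The 1 tested pancreatic acinar marker was not called. Leaving out ileum crypt 3, 1 Paneth marker, Mmp7, was called higher in CD166, and 2 enteroendocrine markers, Tac1 and Tph1, were called lower in LGR5. By region 2 of 6 Paneth markers and 3 of 7 goblet markers were higher and 1 of 7 enteroendocrine markers was lower in the ileum. Without ileum crypt 3, 5 of 7 goblet markers were higher (Agr2, Clca3, Muc2, Spdef and Tff3), 2 enteroendocrine markers (Cck and Tph1) and 1 hepatocyte marker, Alb, were lower in the ileum, and the 2 Paneth markers were again Mmp7 and Pla2g2a.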
